A study of Homo sapiens with 16 samples.

Results

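The genes described here are the 6 members of the imprinted cluster around SNRPN on the long arm of human chromosome 15 that were chosen by name: SNRPN, SNHG14, NDN, MAGEL2, MKRN3 and UBE3A. They are 6 of the 60448 genes in the count tables. The cluster was chosen because SNRPN and SNHG14 were near 0 in 1 of the 8 groups of libraries, so the values that chose it are given as a description, without a test. The cells are HMLER, a line of human mammary epithelial cells transformed in culture with viral and RAS oncogenes, and total RNA was sequenced from 16 libraries in 8 groups of 2. C1 was the stable epithelial state and carried no edit according to its label. C2-Epi and C2-Mes were the plastic epithelial and the mesenchymal state of C2, also labelled wild type. C1-sgControl was C1 with a control guide RNA and labelled wild type. C1-sgEED-Epi and C1-sgEED-Mes were the plastic epithelial and mesenchymal state of C1 labelled as knockout of EED, a core subunit of the histone methyltransferase complex PRC2. C1-sgKMT2D-Epi and C1-sgKMT2D-Mes were the corresponding states labelled as knockout of KMT2D, a histone H3 lysine methyltransferase of enhancers. All 8 groups share the HMLER background and medium. The labels do not say whether the 2 libraries of a group came from separate cultures, so a p-value measures the spread between these libraries, which may be technical. They also do not say whether a knockout group is 1 clone or a pool.

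Genomic imprinting keeps one parental copy of a gene silent, usually through DNA methylation laid down in the germ line at an imprinting centre. In this cluster the imprinting centre lies at the SNURF-SNRPN promoter, and the paternal copy alone normally makes SNRPN, the long transcript SNHG14 with its small nucleolar RNAs (snoRNAs), NDN, MAGEL2 and MKRN3. UBE3A lies on the opposite strand beyond the snoRNAs and is read from both parental copies in most tissues, whereas in neurons SNHG14 silences the paternal copy. Loss of the paternal transcripts causes Prader-Willi syndrome and loss of maternal UBE3A causes Angelman syndrome.

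By their annotation (GENCODE 29 on GRCh38, the build of the counts) the 6 genes lie between MKRN3 and UBE3A in 15q11-q13. SNRPN (ENSG00000128739) spans chr15:24823637-24978723 on the plus strand and SNHG14 (ENSG00000224078) follows it at chr15:24978583-25419462. UBE3A (ENSG00000114062) is on the minus strand at chr15:25333728-25439056, so its gene body overlaps the far end of SNHG14. MKRN3 (ENSG00000179455, chr15:23565674-23630075, plus), MAGEL2 (ENSG00000254585, chr15:23643549-23647867, minus) and NDN (ENSG00000182636, chr15:23685400-23687330, minus) lie before SNRPN. Of the 3416 exonic bases of SNRPN, 33.6% are shared with other genes of the same strand, chiefly SNURF with 23.8%, and of the 43324 of SNHG14, 7.45% are. SNHG14 and UBE3A share 198 exonic bases on opposite strands, which is 1.55% of UBE3A. How reads in shared bases were counted, and whether strand was used, is not given in the sources used here.

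The start windows of the genes are shown for their CG dinucleotides, the sites of DNA methylation in mammals, which was not measured here. The windows are RefSeq's on GRCh38.p14, each with 250 bases before and 50 after an annotated start, 5′ to 3′ on the gene's strand, with CG in capitals.
SNURF-SNRPN, chr15:24954737-24955036 (+): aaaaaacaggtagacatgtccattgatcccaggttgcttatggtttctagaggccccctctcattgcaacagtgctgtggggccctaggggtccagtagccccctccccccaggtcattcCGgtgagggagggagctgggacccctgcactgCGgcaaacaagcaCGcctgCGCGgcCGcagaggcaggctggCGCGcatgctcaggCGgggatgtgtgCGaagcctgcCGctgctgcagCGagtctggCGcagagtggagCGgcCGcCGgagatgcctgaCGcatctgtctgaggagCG
NDN, chr15:23687256-23687555 (-): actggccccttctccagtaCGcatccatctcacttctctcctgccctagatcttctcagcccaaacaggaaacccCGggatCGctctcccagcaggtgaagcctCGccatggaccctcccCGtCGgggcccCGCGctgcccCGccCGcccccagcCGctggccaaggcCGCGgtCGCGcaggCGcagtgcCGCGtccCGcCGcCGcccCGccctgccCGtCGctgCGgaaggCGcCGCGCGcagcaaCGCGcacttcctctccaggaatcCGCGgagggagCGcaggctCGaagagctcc
UBE3A, chr15:25438975-25439274 (-): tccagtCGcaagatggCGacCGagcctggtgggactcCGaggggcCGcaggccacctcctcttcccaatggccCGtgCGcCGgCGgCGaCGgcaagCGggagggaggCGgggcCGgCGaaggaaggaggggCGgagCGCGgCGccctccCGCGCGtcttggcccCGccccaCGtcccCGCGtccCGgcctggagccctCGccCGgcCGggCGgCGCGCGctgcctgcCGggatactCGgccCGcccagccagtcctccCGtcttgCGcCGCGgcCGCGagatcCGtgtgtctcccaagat
The SNURF-SNRPN window holds 18 CG, and 44.3% of the 34943 windows of the table hold at least as many. NDN holds 35 and the UBE3A window shown 44, which 14.1% and 4.19% of windows reach. Further annotated starts of UBE3A have windows with 39 and 38 CG, and those of SNRPN 11, 7 and 2. The windows of MKRN3, MAGEL2 and SNHG14 hold 15, 9 and 9, against a median of 14. A further annotated start of SNRPN, chr15:24956050-24956349 on the plus strand, is shown for a motif. AAGATGGC, the core letters bound by the factor YY1, was searched on both strands and was found in 2.89% of all windows. The match is in capitals.
SNRPN alternative start: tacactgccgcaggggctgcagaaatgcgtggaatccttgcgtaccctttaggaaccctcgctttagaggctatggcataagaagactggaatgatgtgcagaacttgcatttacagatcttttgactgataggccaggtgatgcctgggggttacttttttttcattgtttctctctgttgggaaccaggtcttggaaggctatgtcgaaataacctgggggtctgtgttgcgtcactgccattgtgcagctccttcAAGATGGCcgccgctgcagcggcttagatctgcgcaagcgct
The match begins at base 259, counted from the 5′ end of the window. The same letters begin at base 10 of the UBE3A window above. Such a match is a description of the letters and not a measured site.

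The libraries held 18872124 to 31950649 counts. Of the genes, 18285 passed the filter on low counts, and 3 of the 6 members did. The 2 libraries of a group correlated at 0.992 to 0.998 across genes on the log scale except those of C2-Mes, at 0.975, which also had the smallest and the largest total. EED read 28.1 ± 1.99 CPM (counts per 1000000, SD, n = 2) in C1-sgEED-Epi, against 27.3 ± 1.09 in C1 and 24.1 ± 3.52 in C1-sgControl, and 5.36 ± 0.197 in C1-sgEED-Mes. The EED transcript therefore was not low in the libraries labelled C1-sgEED-Epi, and an edit of the gene need not lower its RNA. KMT2D read 126 ± 1.85 CPM in C1-sgKMT2D-Epi and 81.7 ± 6.92 in C1-sgKMT2D-Mes, against 86.1 ± 8.33 in C1 and 80.4 ± 13.4 in C1-sgControl, so its RNA level does not check those labels either. Epithelial markers, summed over 8 genes, lay at 5982 to 7143 CPM in C1-sgEED-Epi and 1290 to 1532 in C1-sgEED-Mes, and mesenchymal markers at 16370 to 18320 and 103900 to 106000. The epithelial genes differed among themselves: KRT8 read 703 CPM in C1-sgEED-Epi and 955 in C1-sgEED-Mes, and CDH1, the epithelial cadherin, 323 and 0.298. A list of 10 neural genes summed to 7.34 to 9.56 CPM in C1-sgEED-Epi and 72.7 to 85.3 in C1-sgEED-Mes, with ELAVL4, DCX and SOX10 at 0 in the latter. MAP2, a microtubule protein, made up most of it, at 8.08 and 74.4 CPM, and no other gene of the list passed a mean of 3.49 CPM in either group; the part of these genes in the levels of the members was not tested. In bulk RNA, fewer expressing cells and less RNA per cell cannot be told apart.

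SNRPN, which encodes SmN, a protein of the core of spliceosomal particles that can stand in for SmB, was read in 14 libraries and all but missing from 2. Both libraries labelled C1-sgEED-Epi held 2 counts each, or 0.0762 and 0.0702 CPM on TMM-scaled totals. The other 14 libraries held 189 to 513 counts, at 8.07 to 17.4 CPM with a median of 13.5. No other library came near the C1-sgEED-Epi pair, and 3 counts correspond to 0.0959 to 0.175 CPM, so the 2 counts are at the limit of what these depths resolve.
C1-sgEED-Mes, the other state with the same label of genotype, held 241 and 213 counts, at 8.74 and 9.38 CPM. Its level was 124 times that of C1-sgEED-Epi, with a 95% exact interval of 47.9 to 456 that covers counting error only. Such an interval pools the libraries of each group. It is a description and not a test, since these values chose the cluster. C1-sgControl, at 14.8 and 17.4 CPM, stood 221 times above it, with an interval of 85.8 to 811. SNRPN in C1-sgEED-Mes thus lay below C1 and C1-sgControl with no overlap, at a log2 difference of -0.83 from C1-sgControl.

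SNHG14, the host transcript of the SNORD116 and SNORD115 snoRNA clusters and the antisense of UBE3A in neurons, followed the same split. C1-sgEED-Epi held 7 and 8 counts, at 0.267 and 0.281 CPM. The other 14 libraries held 770 to 3994 counts, at 33.0 to 142 CPM with a median of 68.3. The gap between the C1-sgEED-Epi pair and the lowest other library was larger than the range of the other 14 on the log scale.
C1-sgEED-Mes held 1610 and 1578 counts, at 58.4 and 69.5 CPM, which was 231 times the level in C1-sgEED-Epi (95% exact interval 140 to 414, counting error only). C1-sgControl was 138 times above C1-sgEED-Epi (83.5 to 247) and C1 365 times (221 to 652). These intervals span less than those of SNRPN because SNHG14 gave 15 counts in the 2 libraries and SNRPN 4.

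UBE3A, the ubiquitin ligase of Angelman syndrome, did not share that split. It held 3918 and 3786 counts in C1-sgEED-Epi, at 149 and 133 CPM, and 3132 and 3377 in C1-sgEED-Mes, at 114 and 149 CPM. The 2 groups overlapped, at a ratio of 0.92 of C1-sgEED-Mes to C1-sgEED-Epi (95% exact interval 0.89 to 0.951 from counting error, which is smaller than the spread between libraries). Across all 16 libraries UBE3A ranged from 69.1 to 174 CPM, and C1-sgEED-Epi was the third highest of the 8 groups.

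**Figure D1:**
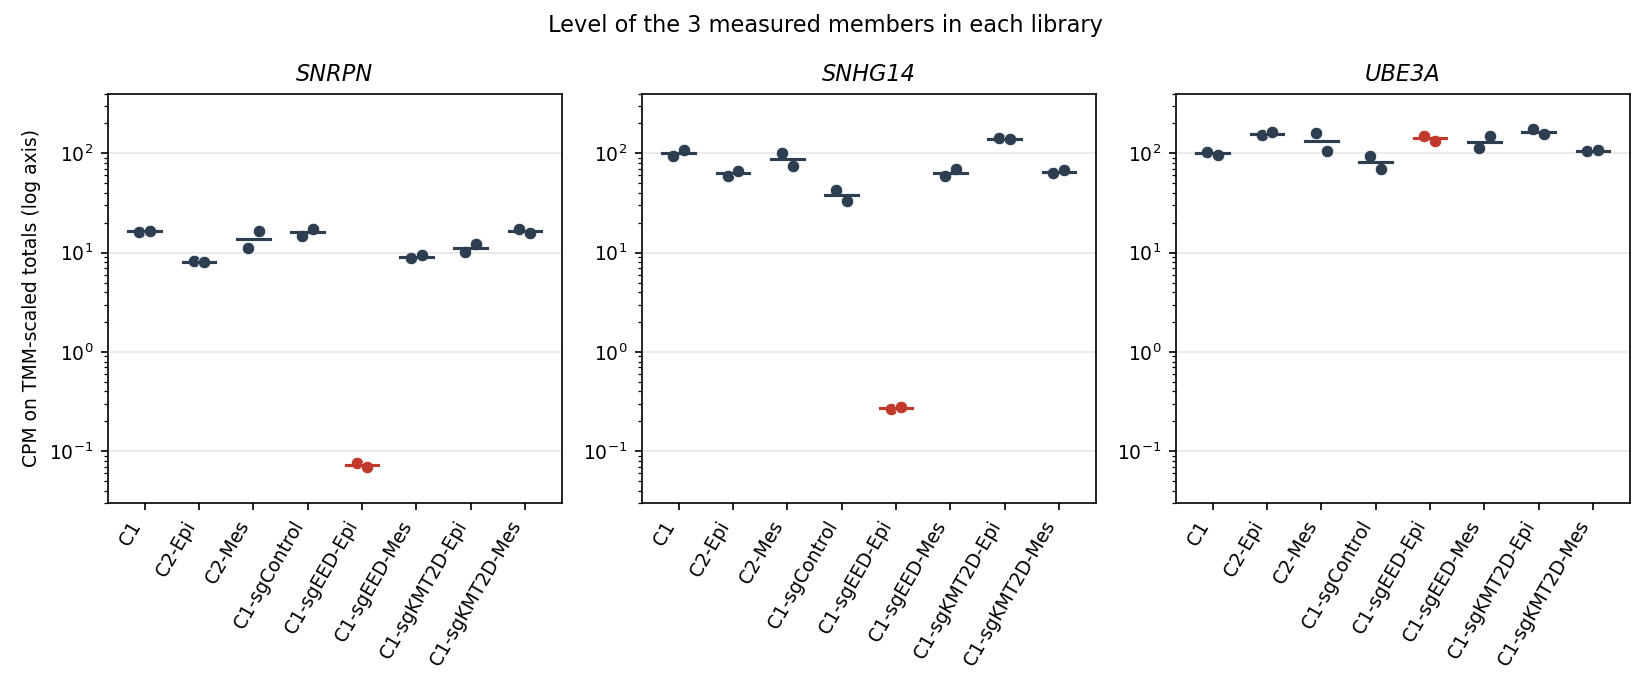
CPM on TMM-scaled totals, on a log axis, of SNRPN, SNHG14 and UBE3A in each of the 16 libraries by group; points are libraries and bars are means of 2. C1-sgEED-Epi (red) lies near 0.07 CPM for SNRPN and between 0.267 and 0.281 for SNHG14, below all other libraries, and among the others for UBE3A.

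The 3 remaining members gave almost no reads anywhere. NDN, which encodes the MAGE protein necdin, and MKRN3, a makorin ubiquitin ligase known from central precocious puberty, had 0 counts in all 16 libraries. MAGEL2, a MAGE protein of endosomal sorting, had 1 count, in C1 replicate 2. A count of 0 allows a level of up to 0.0959 to 0.175 CPM, depending on the library, so these genes cannot be compared between groups at this depth. NPAP1, another paternal gene, had 0 counts, and ATP10A, beyond UBE3A, peaked at a group mean of 0.0402 CPM. The absence of the 3 genes before SNRPN was therefore shared by every group, including those with full SNRPN levels.

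Across the cluster, the near loss in C1-sgEED-Epi covered the transcripts read from the plus strand between the starts of SNRPN and UBE3A. PWAR5 and PWAR6, non-coding RNAs of the Prader-Willi region that lie inside the SNHG14 unit, showed 1 and 2 counts and 1 and 1 counts in C1-sgEED-Epi. In C1-sgEED-Mes PWAR5 had 34 and 15 counts and PWAR6 59 and 27. The ratios were 17.8 (95% exact interval 5.74 to 89.2, counting error only) and 46.8 (12.6 to 393), given as a description. SNURF, read from the same message as SNRPN, had 0 counts in both C1-sgEED-Epi libraries and 0 to 12 elsewhere. The 95 other plus-strand genes annotated in the unit, of which at most 24 had a count in any 1 library, together gave 4 and 3 counts in C1-sgEED-Epi and 87 to 855 in the other libraries; this set was drawn by position after the values were seen. RPL5P1, a pseudogene on the minus strand within SNRPN, stood at 0.910 CPM in C1-sgEED-Epi and a median of 0.868 over the other groups.

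The SNORD116 snoRNAs, whose loss is the minimal known lesion of Prader-Willi syndrome, are named by their copies. The copies with the most counts over all libraries are shown. Reads at a copy may come from unprocessed SNHG14, the host, so these counts do not show processed snoRNAs. Sequences are those of the GENCODE 29 transcripts, with the C box TGATGA and the D box CTGA in capitals.
SNORD116-6, chr15:25065026-25065121 (+): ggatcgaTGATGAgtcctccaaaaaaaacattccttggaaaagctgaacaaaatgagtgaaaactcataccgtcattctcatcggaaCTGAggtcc
SNORD116-1, chr15:25051477-25051571 (+): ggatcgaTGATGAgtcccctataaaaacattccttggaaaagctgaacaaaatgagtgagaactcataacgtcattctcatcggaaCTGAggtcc
SNORD116-24, chr15:25094037-25094128 (+): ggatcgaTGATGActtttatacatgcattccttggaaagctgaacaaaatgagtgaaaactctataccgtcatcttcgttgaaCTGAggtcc
These 3 copies gave 36, 30 and 30 counts in all 16 libraries. The 30 copies summed to 1 and 0 counts in C1-sgEED-Epi and to 10 to 40 in every other library. C1-sgEED-Mes, at 25 and 13 counts, stood 41.4 times above C1-sgEED-Epi, with a 95% exact interval of 6.99 to 1677 that covers counting error only. The copies are near-identical, so reads may be split among them, and a library of total RNA may hold few molecules this short. The 48 SNORD115 copies, which are brain-specific, had 0 counts in every library, as did PWRN1 to PWRN4.

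The named genes beside the cluster were not low in C1-sgEED-Epi. Before the cluster, NIPA1 and NIPA2, magnesium transporters, read 37.8 and 116 CPM, against medians of 25.6 and 82.6 over the other 7 groups. CYFIP1, of the WAVE actin complex, read 185 against 172, and TUBGCP5, of the gamma-tubulin ring, 24.7 against 22.9. Beyond the cluster, HERC2, a large ubiquitin ligase, read 125 against 96.8, TJP1, of tight junctions, 208 against 184, and KLF13, a transcription factor, 110 against 112. FAN1, a DNA repair nuclease, read 68.4 against 49.6, NSMCE3, of the SMC5/6 complex, 18.0 against 13.2, MTMR10, a myotubularin, 20.2 against 19.3, and CHRNA7, a nicotinic receptor subunit, 1.90 against 0.146. In none of these 11 genes was C1-sgEED-Epi the lowest group. Among the less studied transcripts further along, AC127502.1, at 0.765 CPM against 1.16, and AC135983.2, at 2.54 against 3.75, were lowest there.
The neighbours are not members and were tested. Of the 4 proximal genes, 1 fell and none rose in C1-sgEED-Mes against C1-sgEED-Epi, and of 8 tested distal genes 1 fell and none rose, where 36.5% of all tested genes were called (edgeR, adjusted p under 0.05). The first was NIPA1, at a log2 change of -0.56 (adjusted p = 0.033), a call that ended without C1-sgEED-Epi replicate 1 (adjusted p = 0.102), C1-sgEED-Epi replicate 2 (0.0729) or C1-sgEED-Mes replicate 1 (0.187). The second was FAN1, at -0.63 (adjusted p = 0.00177). The median changes were -0.20 and -0.063, beside 0.0101 over all tested genes.

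**Figure D2:**
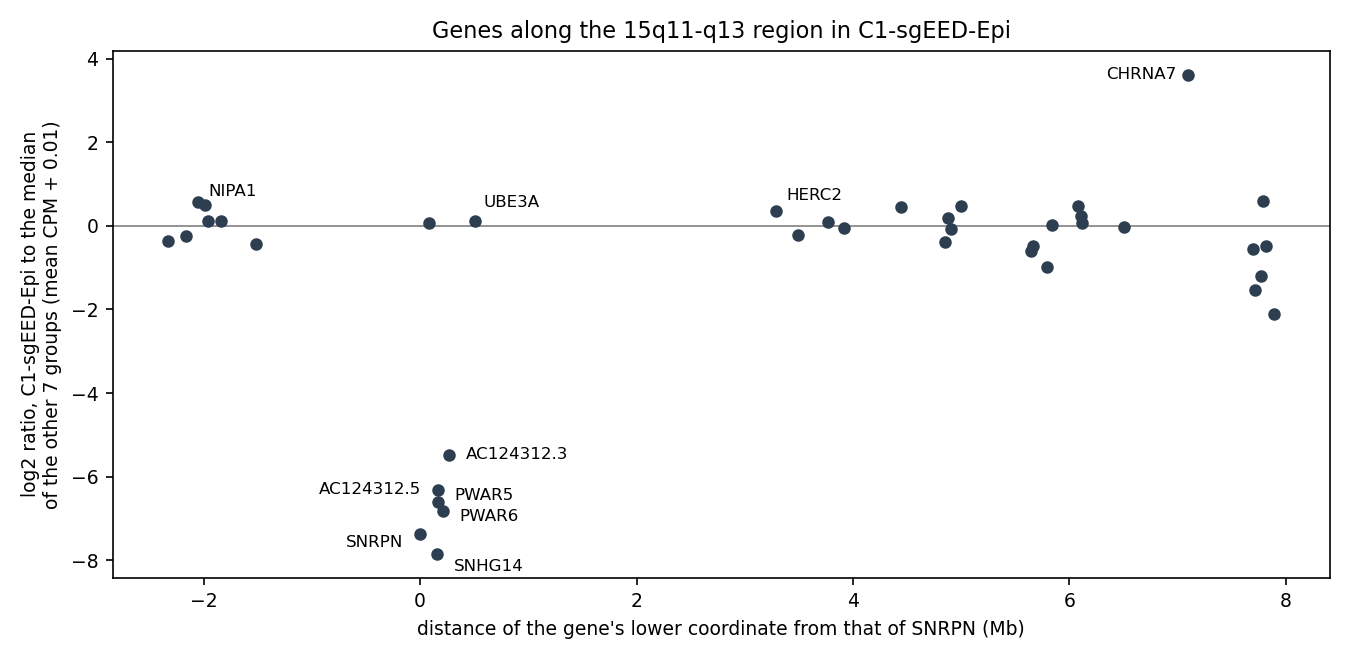
Log2 ratio of mean CPM in C1-sgEED-Epi to the median of the other 7 groups (0.01 CPM added to both), for genes of 15q11-q13 with a mean of at least 10 counts, against the distance in Mb of the lower coordinate of each gene from that of SNRPN. SNRPN, SNHG14, PWAR5, PWAR6, AC124312.5 and AC124312.3 lie between -5.47 and -7.85, UBE3A at 0.10 and NIPA1 at 0.56.

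The size of this gap was set beside the rest of the transcriptome, as a description made after the values were seen. Of 8777 genes with at least 5 CPM in each of the 14 libraries outside C1-sgEED-Epi, 2 were under 0.5 CPM in both C1-sgEED-Epi libraries, and they were SNRPN and SNHG14. The same count made for each other group gave 2 genes in C2-Epi (AUTS2 and ZNF542P), 2 in C2-Mes (IQCA1 and TCF7L1), 2 in C1-sgControl (GALNT5 and SVEP1) and 0 in the remaining 4. Single genes at an on and off difference in 1 group were thus not limited to C1-sgEED-Epi.

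The 5 comparisons without a C1-sgEED library leave out the group whose low levels chose the cluster. The levels of the other groups were part of that choice, and earlier results of these data were known. The 3 measured members were tested in these comparisons by quasi-likelihood in edgeR. Their p-values were adjusted over all 18285 tested genes by the Benjamini-Hochberg method. SNRPN and SNHG14 were called in the same direction in 2 of these comparisons and in opposite directions in 2. The first 2 share the C2-Epi libraries and the other 2 the C1-sgKMT2D-Epi libraries, so they are not separate observations. In each of them the SNRPN or the SNHG14 call ended when single libraries were left out, as given below. The share of all tested genes whose groups of 2 do not overlap was not counted. A lack of overlap, here and elsewhere, therefore only describes the libraries.

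In C2-Mes against C2-Epi, the change from the epithelial to the mesenchymal state of unedited C2, SNRPN and SNHG14 both rose. SNRPN read 8.20 and 8.07 CPM in C2-Epi and 11.04 and 16.4 in C2-Mes, a log2 change of 0.76 (SE 0.189, adjusted p = 0.0053). SNHG14 read 59.6 and 67.0 against 99.8 and 75.0, a log2 change of 0.46 (SE 0.168, adjusted p = 0.0413). The groups did not overlap for either gene.
UBE3A read 151 and 165 CPM in C2-Epi and 162 and 106 in C2-Mes, at -0.24 (adjusted p = 0.378). Of the measured members, SNRPN and SNHG14 were called, where 39.6% of all tested genes were. The C2-Mes libraries differed widely, and both calls rest on single libraries. Without C2-Mes replicate 1 the SNHG14 change was 0.14 (adjusted p = 0.52) and that of UBE3A -0.69 (adjusted p = 0.00713), and without C2-Mes replicate 2 the SNRPN change was 0.40 (adjusted p = 0.0938). Leaving out C2-Epi replicate 1 or 2 also ended the SNRPN call (adjusted p = 0.053 and 0.0554) and the SNHG14 call (0.352 and 0.127).

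In C1-sgKMT2D-Mes against C1-sgKMT2D-Epi, SNRPN and SNHG14 went in opposite directions. SNHG14 fell from 142 and 138 CPM to 63.7 and 67.1, a log2 change of -1.10 (SE 0.17, adjusted p = 1.08e-04). SNRPN went from 10.2 and 12.2 to 17.1 and 15.7 CPM, a log2 change of 0.55 (SE 0.186, adjusted p = 0.0238). The groups did not overlap for either gene.
UBE3A fell from 174 and 158 to 104 and 108 CPM, at -0.64 (SE 0.205, adjusted p = 0.0178). All 3 measured members were called, where 50.8% of all tested genes were. The SNHG14 call held with each of the 4 libraries left out in turn, with changes of -1.20 to -1.13. The SNRPN call ended without C1-sgKMT2D-Epi replicate 1 or 2 (adjusted p = 0.24 and 0.0507) and without C1-sgKMT2D-Mes replicate 1 or 2 (0.176 and 0.0759). The UBE3A call ended without C1-sgKMT2D-Epi replicate 1 (0.0763) and without C1-sgKMT2D-Mes replicate 1 or 2 (0.0712 and 0.0553).

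The difference between these 2 changes was tested as an interaction, which was added after the changes had been seen. The change of SNHG14 from the epithelial to the mesenchymal state was lower in C1-sgKMT2D than in C2 by a log2 difference of -1.56 (SE 0.239, adjusted p = 3.23e-04), and 24.1% of all tested genes differed. It lay between -1.78 and -1.30 with each of the 8 libraries left out in turn, called each time. The differences for SNRPN, at -0.21 (adjusted p = 0.627), and UBE3A, at -0.40 (adjusted p = 0.361), did not pass.

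In C2-Epi against C1, both epithelial and unedited, SNRPN fell from 16.2 and 16.6 CPM to 8.20 and 8.07, a log2 change of -1.01 (SE 0.189, adjusted p = 0.0014). SNHG14 fell from 93.0 and 107 to 59.6 and 67.0, at -0.66 (SE 0.169, adjusted p = 0.0101), while UBE3A rose from 104 and 95.1 to 151 and 165, at 0.67 (SE 0.205, adjusted p = 0.025). None of these groups overlapped. All 3 measured members were called, where 30.7% of all tested genes were.
The SNRPN call held with each of the 4 libraries left out in turn. The SNHG14 call ended without C1 replicate 1 or 2 (adjusted p = 0.0501 and 0.155) and without C2-Epi replicate 1 or 2 (0.147 and 0.0674), and the UBE3A call without C1 replicate 1 or 2 (0.0698 and 0.113) or C2-Epi replicate 2 (0.107).

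In C1-sgControl against C1, the check of the control guide, SNHG14 fell from 93.0 and 107 CPM to 42.6 and 33.0, a log2 change of -1.40 (SE 0.172, adjusted p = 8.99e-05), with no overlap. SNRPN, at -0.024 (adjusted p = 0.954), and UBE3A, at -0.28 (adjusted p = 0.34), did not pass. SNHG14 was thus the only measured member called, where 27.1% of all tested genes were. The SNHG14 call held with each of the 4 libraries left out, at -1.61 to -1.26. C1-sgControl also had the highest share of counts from 82 ribosomal protein genes, 5.95 and 7.22%, against 3.27 to 4.997% in the other 14 libraries, whose part in the SNHG14 level was not tested.

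In C1-sgKMT2D-Epi against C1-sgControl, SNHG14 rose from 42.6 and 33.0 to 142 and 138 CPM, a log2 change of 1.89 (SE 0.174, adjusted p = 1.37e-06). UBE3A rose from 94.9 and 69.1 to 174 and 158, at 1.01 (SE 0.206, adjusted p = 9.1e-04). SNRPN fell from 14.8 and 17.4 to 10.2 and 12.2, at -0.53 (SE 0.186, adjusted p = 0.0272). None of these groups overlapped, and all 3 measured members were called, where 56.0% of all tested genes were.
Against C1 in place of C1-sgControl the SNHG14 change was 0.49 (adjusted p = 0.0345), the UBE3A change 0.73 (0.0122) and the SNRPN change -0.55 (0.0317). Of the SNHG14 change of 1.89 against C1-sgControl, the difference between C1 and C1-sgControl made up 1.40. The SNRPN call against C1-sgControl ended in DESeq2 (adjusted p = 0.0657), without C1-sgControl replicate 2 (0.26) and without C1-sgKMT2D-Epi replicate 1 or 2 (0.257 and 0.0527).

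**Figure D3:**
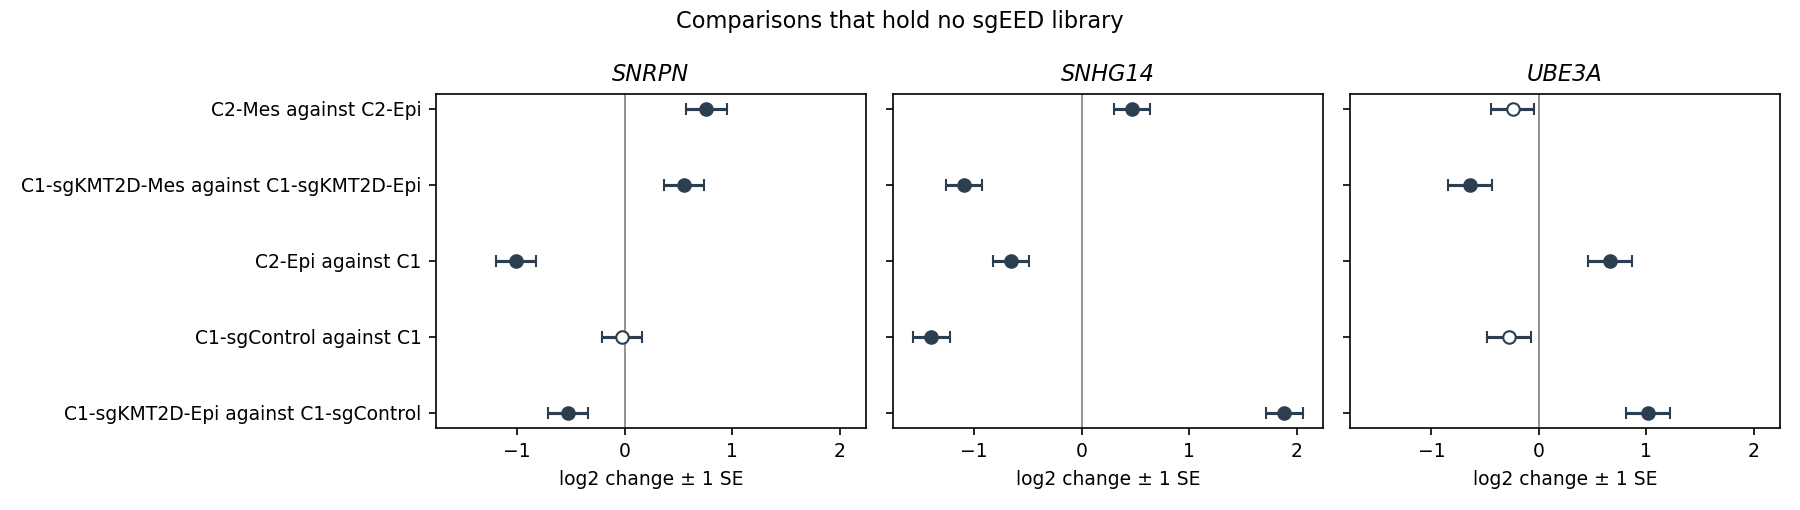
Log2 change with 1 SE of SNRPN, SNHG14 and UBE3A in the 5 comparisons without a C1-sgEED library, from the edgeR fit; filled points have an adjusted p under 0.05. SNHG14 runs from -1.40 to 1.89. SNRPN and SNHG14 lie on opposite sides of 0 in both comparisons with C1-sgKMT2D, which share the C1-sgKMT2D-Epi libraries.

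PWAR5 and PWAR6, inside the SNHG14 unit, were called together with SNHG14 in 3 of these 5 comparisons. PWAR6 fell, at a log2 change of -1.26, in C1-sgKMT2D-Mes against C1-sgKMT2D-Epi (adjusted p = 0.0274) and was at -1.97 in C1-sgControl against C1 (adjusted p = 0.0106), and rose by 3.02 in C1-sgKMT2D-Epi against C1-sgControl (adjusted p = 1.81e-04). PWAR5 changed by -2.19 (adjusted p = 0.00866), -2.49 (0.0137) and 2.98 (0.00164) in the same order. Neither passed in C2-Epi against C1, nor in C2-Mes against C2-Epi, where the 2 C2-Mes libraries differed most, at 221 and 65 counts of PWAR5.
With C1 as the control in place of C1-sgControl, the changes in C1-sgKMT2D-Epi were 1.05 for PWAR6 (adjusted p = 0.0702) and 0.49 for PWAR5 (0.51), and neither passed. Leaving out single libraries ended these calls too. In C1-sgKMT2D-Mes against C1-sgKMT2D-Epi, PWAR6 failed whichever of the 4 libraries was left out, and PWAR5 failed without C1-sgKMT2D-Mes replicate 1 (adjusted p = 0.0623). In C1-sgControl against C1, both failed without C1 replicate 2 or C1-sgControl replicate 2, and PWAR5 also without C1-sgControl replicate 1.

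The order of the groups differed between the members. SNRPN was highest in C1-sgKMT2D-Mes (16.4 ± 0.988 CPM, SD, n = 2), C1 (16.4 ± 0.255), C1-sgControl (16.1 ± 1.85) and C2-Mes (13.7 ± 3.78), followed by C1-sgKMT2D-Epi (11.2 ± 1.46), and neighbours in this order overlapped. It was lower without overlap in C1-sgEED-Mes (9.06 ± 0.448), then C2-Epi (8.14 ± 0.0919) and C1-sgEED-Epi (0.0732 ± 0.00423). SNHG14 was highest in C1-sgKMT2D-Epi (140 ± 2.53 CPM), followed without overlap by C1 (99.8 ± 9.68) and C2-Mes (87.4 ± 17.5), which overlapped.
Then came C1-sgKMT2D-Mes (65.4 ± 2.45), C1-sgEED-Mes (63.9 ± 7.82) and C2-Epi (63.3 ± 5.24), which overlapped, C1-sgControl (37.8 ± 6.79) and C1-sgEED-Epi (0.274 ± 0.01003). UBE3A was highest in C1-sgKMT2D-Epi (166 ± 11.4) and C2-Epi (158 ± 9.34) and lowest in C1 (99.7 ± 6.40) and C1-sgControl (82.0 ± 18.2). Across all 16 libraries, SNRPN and SNHG14 correlated at r = 0.916 on the log2(CPM + 1) scale, and across the 14 without C1-sgEED-Epi at r = -0.14. Over the same 14 libraries SNRPN and UBE3A had r = -0.78 (rho = -0.77) and SNHG14 and UBE3A r = 0.62 (rho = 0.47). The points share libraries and groups, so these are descriptions without a test.

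The genes whose levels across the 16 libraries were most like those of a member were named by the 5 highest Pearson correlations among 14443 candidates. For SNRPN they were SERPINB1 (r = 0.923), ESD (0.915), FBXL2 (0.902), DZIP1 (0.888) and ARHGEF7 (0.882). For SNHG14 they were DZIP1 (0.904), COG3 (0.872), ESD (0.870), WBP4 (0.865) and GPALPP1 (0.851). For UBE3A the 4 reported here were PPP2R5E (0.982), BAG4 (0.974), C5orf51 (0.968) and HAUS3 (0.956).
The likeness of the first 2 lists is a shared low in C1-sgEED-Epi, but a shallow one: DZIP1 read 23.3 ± 0.88 CPM there and 45.1 to 68.0 in the other 14 libraries. All 5 genes named for SNHG14, and 3 of the 5 for SNRPN, are on chromosome 13.

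Medians by chromosome were therefore computed after this was seen. The 194 protein-coding genes of chromosome 13 with a mean of at least 5 CPM lay at a median log2 difference of -0.78 in C1-sgEED-Epi from the median of the other groups, at -0.67 and -0.82 in its 2 libraries, and 92.8% of them were lower. The 340 such genes of chromosome 15 lay at 0.00994 in C1-sgEED-Epi, and the 25 within 10 Mb beyond HERC2 at 0.16. The median of chromosome 15 as a whole, unlike that of chromosome 13, was thus close to 0 in the group with SNRPN and SNHG14 near 0. What lowered the chromosome 13 genes was not tested, nor whether it bears on the members.

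**Figure D4:**
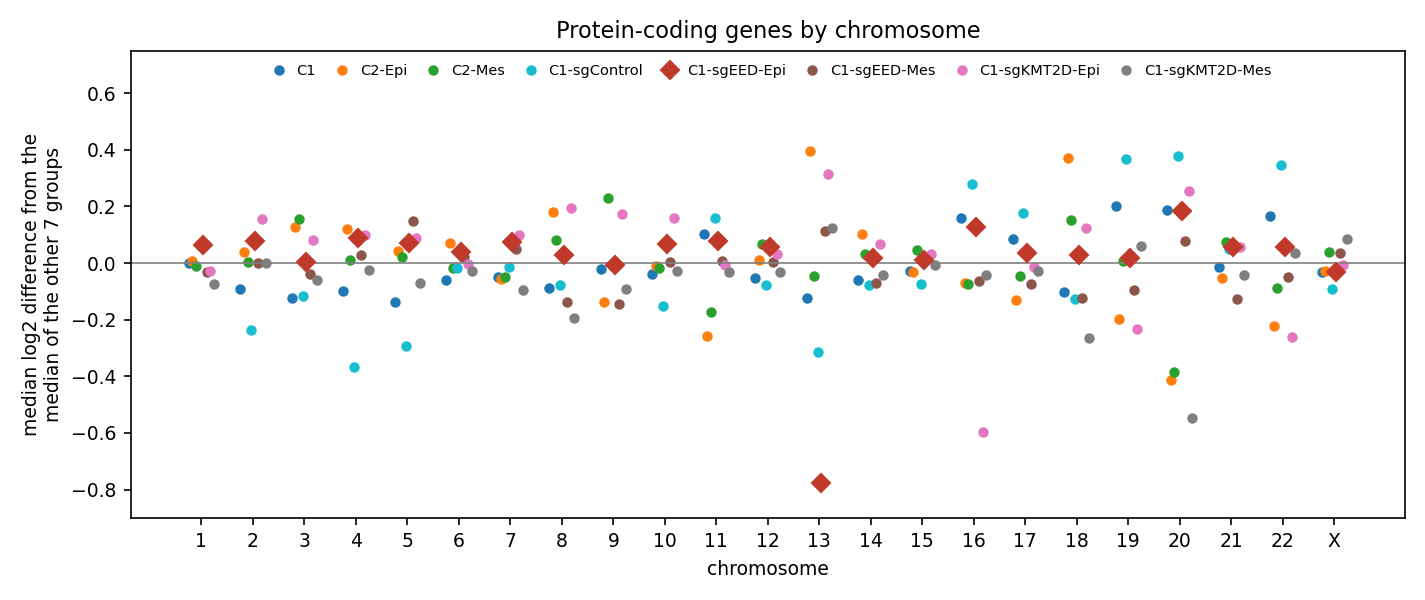
Median log2 difference, per chromosome, of protein-coding genes with a mean of at least 5 CPM in each group from the median of the other 7 groups, on the log2(CPM + 1) scale; each point is a group and C1-sgEED-Epi is the red diamond. C1-sgEED-Epi is at -0.78 on chromosome 13 and at 0.00994 on chromosome 15.

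The genes that work beside the members were counted from lists of known relations. The Sm core, the ring of proteins that SmN can join, held 7 genes, all tested. None of the 7 was called in C1-sgEED-Mes against C1-sgEED-Epi (median log2 change -0.18), where 36.5% of all tested genes were. In C1-sgEED-Epi against C1-sgControl 3 rose and none fell (median 0.52), where 48.8% were called. In C2-Mes against C2-Epi 5 fell and none rose (median -0.55), and in C1-sgKMT2D-Mes against C1-sgKMT2D-Epi 5 fell and none rose (median -0.75), where 18.6% and 24.0% of all tested genes were called lower.
SNRPD1 fell in both, at -0.81 (adjusted p = 0.00172) and -1.25 (adjusted p = 3.96e-05), and so did SNRPD3, at -0.52 in both (adjusted p = 0.0187 and 0.0142). With only the compared libraries the SNRPD3 call in C2 ended (adjusted p = 0.202). SNRPB, which encodes SmB, was not called in the first, at -0.52 (adjusted p = 0.172), and fell in the second, at -1.09 (adjusted p = 0.0065), a call that ended without C1-sgKMT2D-Epi replicate 2 (0.053). SNRPN rose in both of these comparisons. Per kilobase of exon, SNRPB read 115 ± 10.8 CPM in C1-sgEED-Epi and 78.0 ± 35.4 in C1-sgEED-Mes, and SNRPN 0.0214 ± 0.00124 and 2.65 ± 0.131. SmB message was thus far above SmN message per length in both states, and in C1 the values were 111 ± 6.16 and 4.80 ± 0.0747. The SNRPN length includes bases shared with other genes of its strand (33.6%). Reads there may not have been counted, so the SNRPN value per length may be too low.

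Other MAGE genes and partners of MAGEL2 held 14 tested genes of 20. In C1-sgEED-Mes against C1-sgEED-Epi 4 rose and 1 fell (median 0.10), where 36.5% of all tested genes were called. MAGED1, a MAGE adaptor related to necdin, rose from 116 to 499 CPM, a log2 change of 2.10 (adjusted p = 2.11e-04). MAGED2, a paralog of it that was named after its value was seen, rose from 44.6 to 250 CPM, at 2.485 (adjusted p = 2.58e-05). MAGED1 also rose in C1-sgKMT2D-Mes against C1-sgKMT2D-Epi, at 2.51 (adjusted p = 3.39e-05). In C2-Mes against C2-Epi MAGED1 and MAGED2 were called higher too. Those calls ended with only the compared libraries (1.19 and 0.99, edgeR adjusted p = 0.174 and 0.199). Without C2-Mes replicate 2 the changes there were 0.22 and 0.16. These MAGE genes were thus read at high levels in cells where NDN and MAGEL2 had 0 counts.

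Of 12 makorins and partners of UBE3A, 1 rose and 1 fell in C1-sgEED-Mes against C1-sgEED-Epi (median -0.21), where 36.5% of all tested genes were called. They were ARC, a synaptic protein reported as regulated by UBE3A, at 1.59 (adjusted p = 0.0041), and NEURL4, a partner of HERC2, at -0.57 (adjusted p = 0.0119); both were named after their values were seen. The ARC call ended without C1-sgEED-Mes replicate 1 (adjusted p = 0.116) and the NEURL4 call without C1-sgEED-Mes replicate 2 (0.0568). UBE2D3 and UBE2L3, enzymes that hand ubiquitin to ligases, did not pass, at -0.20 (adjusted p = 0.447) and 0.024 (0.947). In C1-sgKMT2D-Mes against C1-sgKMT2D-Epi, where UBE3A fell, 1 rose and 5 fell (median -0.19), a count near the 50.8% of all tested genes called. UBE2D3 was among those that fell, at -0.89 (adjusted p = 0.00148).

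Of 26 genes that keep or read imprints, 25 were tested, and in C1-sgEED-Mes against C1-sgEED-Epi 3 rose and 5 fell (median -0.15), a count near the 36.5% of all tested genes called. CBX5, the heterochromatin protein HP1 alpha, rose by 0.41 (adjusted p = 0.0381), a call that ended without the filter (0.167), with only the compared libraries (0.188), and without C1-sgEED-Epi replicate 1 (0.114), C1-sgEED-Epi replicate 2 (0.201) or C1-sgEED-Mes replicate 2 (0.35). TRIM28, the corepressor that binds KRAB zinc fingers, was at -0.35 (adjusted p = 0.129), KDM1A, a histone demethylase, at -0.30 (0.147) and DNMT1, the maintenance DNA methyltransferase, at -0.19 (0.285). EED itself was among the genes that fell, at -2.39 (adjusted p = 3.83e-08).
ZFP57 and ZNF274 were named after their values were seen. ZFP57, a zinc finger that holds methylation at imprinting centres, had 69 and 75 counts in C1-sgEED-Epi and 4 and 2 in C1-sgEED-Mes, a log2 change of -4.41 (adjusted p = 3.72e-06). It also fell in C2-Mes against C2-Epi, at -3.78 (adjusted p = 1.25e-04), and in C1-sgKMT2D-Mes against C1-sgKMT2D-Epi, at -5.45 (adjusted p = 2.56e-06). It was therefore low in all 3 mesenchymal groups. Its part in the levels of SNRPN and SNHG14 was not tested. ZNF274, which binds within the SNORD116 cluster, fell in C1-sgEED-Mes against C1-sgEED-Epi, at -0.60 (adjusted p = 0.00146). In C1-sgKMT2D-Mes against C1-sgKMT2D-Epi it rose instead. That call ended without the filter on low counts (0.35, edgeR adjusted p = 0.228) and whichever library of the 2 groups was left out. In C1-sgEED-Epi against C1-sgControl, where 48.8% of all tested genes were called, 11 of the 25 rose and 4 fell (median 0.30). DNMT1 rose by 1.15 (adjusted p = 1.04e-05), and ZFP57, at -0.39 (adjusted p = 0.301), did not pass. C1-sgControl itself differed from C1 in this list: 4 of the 25 rose and 10 fell there (median -0.18), where 27.1% were called. For DNMT1 in C1-sgEED-Mes, the change with C1 as the control was 0.18 (edgeR adjusted p = 0.272). How much of the rises against C1-sgControl comes from the level of that control was not tested.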

How the data were processed

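The authors deposited 1 table of raw counts per library. Reads were aligned to GRCh38 with STAR 2.7.1a and counted per gene with featureCounts, per the submitters' processing notes; annotation release, strand setting and the treatment of multiply mapped reads are not given in the sources used here. Ensembl identifiers were named through GENCODE 29, which holds 56868 of the 60448 genes, and start windows were taken from RefSeq (GRCh38.p14). Counts were fitted in R 4.3.3 with edgeR 4.0.16 (filterByExpr with a minimum count of 10, TMM, robust quasi-likelihood, all 16 libraries in 1 fit with a mean for each group, leaving 8 residual degrees of freedom), and adjusted by Benjamini-Hochberg within each comparison at 0.05. CPM are per 1000000 TMM-scaled counts. A floor of 3 counts per library stands for a count of 0. The pipeline was tested on simulated data. DESeq2 1.42.0, RLE scaling, no filter, only the compared libraries, a replicate block, C1 as control and each library left out were alternatives, and alternatives for the interaction were chosen after seeing the data. Members, lists and rules were chosen with earlier results of these data known: all members are named, with the 5 genes most like each, up to 4 genes of highest mean CPM per list and flanking genes of at least 1 CPM. Some genes that this rule names are not reported here.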

Additional observations from a re-analysis of the deposited data

Results flagged for a closer look

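The change of SNHG14 from the epithelial to the mesenchymal state differed between C1-sgKMT2D and C2 by the test of the difference itself, at a log2 difference of -1.56 (SE 0.239, adjusted p = 3.23e-04 by edgeR's quasi-likelihood test). SNHG14 was lower in both C1-sgKMT2D-Mes libraries than in both C1-sgKMT2D-Epi libraries, and higher in both C2-Mes libraries than in both C2-Epi libraries. This interaction was added after the changes had been seen.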

How the results depend on the processing

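Of 138 refits of the 15 member results without C1-sgEED libraries, 106 kept direction and call, 30 lost the call, 1 gained it and 1 reversed. The lost SNHG14 calls in C2-Mes against C2-Epi came without the filter (0.37, adjusted p = 0.18), with only the compared libraries (0.47, 0.208) and with a replicate block (0.46, 0.0519); SNRPN there was lost with only the compared libraries (0.76, 0.119). SNRPN was also lost without the filter in C1-sgKMT2D-Mes against C1-sgKMT2D-Epi (0.47, 0.129) and in C1-sgKMT2D-Epi against C1-sgControl (-0.45, 0.147), and there with DESeq2 (-0.46, 0.0657).

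Leaving out single libraries gave, in C2-Mes against C2-Epi, SNRPN 0.40 to 0.90, SNHG14 0.14 to 0.61 and UBE3A -0.69 to -0.011. In C2-Epi against C1 it gave SNHG14 -0.67 to -0.47, UBE3A 0.68 to 0.82 and 2629 to 3466 genes called in place of 5620. In C1-sgKMT2D-Mes against C1-sgKMT2D-Epi it gave SNRPN 0.36 to 0.61 and UBE3A -0.79 to -0.64. In C1-sgKMT2D-Epi against C1-sgControl it gave SNRPN -0.63 to -0.32. In C1-sgControl against C1 it gave SNRPN -0.18 to 0.080 (0.080 without C1-sgControl replicate 1) and 2226 to 3538 genes called in place of 4951. In C1-sgEED-Mes against C1-sgEED-Epi it gave SNRPN 6.74 to 6.90 and UBE3A -0.35 to 0.030 (0.030 without C1-sgEED-Mes replicate 1). A lone library is assumed to vary like the other groups. The interaction for SNRPN ran from -0.42 to 0.082 (0.082 without C2-Mes replicate 2), and that for UBE3A was called without it (-0.70, adjusted p = 0.0299).

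With only the compared libraries, 9967 genes were called in C2-Epi against C1 and 3361, in place of 7246, in C2-Mes against C2-Epi. With C1 as control, 4601 genes were called in C1-sgEED-Epi in place of 8930, SNHG14 was at -8.48 there in place of -7.08 and at -0.64 in place of 0.76 in C1-sgEED-Mes, and GNAS in C1-sgKMT2D-Epi was at 0.042. DESeq2 gave 6.97 for SNRPN in C1-sgEED-Mes against C1-sgEED-Epi, in place of 6.86. Over 28 pairs of groups, deviations of libraries with the same number correlated at -0.459 to 0.481 (median -0.0156), so the numbers do not pair the libraries; the replicate block changed no other member call. Another 1032 refits covered the called results of named genes and the interactions of the members. Of these, 896 kept call and direction, 133 lost the call, 1 gained it and 2 reversed. Counts of 0 to 3 limit what can be said of NDN, MKRN3, MAGEL2 and of SNRPN in C1-sgEED-Epi.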

Other observations

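Imprinted genes outside chromosome 15 were called about as often as all tested genes between the 2 groups labelled as EED knockout. Of 35 listed genes 29 were tested. In C1-sgEED-Mes against C1-sgEED-Epi 7 rose and 4 fell (median log2 change 0.37), a count near the 36.5% of all tested genes called. GNAS, which encodes a G protein subunit, rose by 0.93 (edgeR adjusted p = 0.00119), while PEG10, a gene derived from a retroelement, at -0.18 (0.632), and IGF2R, a receptor of lysosomal sorting, at 0.11 (0.679), did not pass. MEG3, a non-coding RNA of another imprinted cluster named after its values were seen, read 105 CPM in C1-sgEED-Epi and 6.96 in C2-Epi, its lowest group. RB1, named in the same way, carries an imprinted differentially methylated region and lies on chromosome 13. It read 48.0 CPM in C1-sgEED-Epi and 106 in C1-sgEED-Mes, a log2 change of 1.15 (adjusted p = 0.00484), which ended as a call without C1-sgEED-Epi replicate 2 (0.0937) or C1-sgEED-Mes replicate 2 (0.0636).

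Over all groups and chromosomes, the lowest medians after that of chromosome 13 in C1-sgEED-Epi were those of chromosome 16 in C1-sgKMT2D-Epi, at -0.60, and chromosome 20 in C1-sgKMT2D-Mes, at -0.55.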
